A study of Mus musculus with 8 samples.

Results

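The ATF/CREB transcription factors were followed in macrophages sorted from breast tumours, from hosts labelled as lacking one of these factors, ATF3. The members are Atf3, Atf1, Atf2, Atf4, Atf5, Atf6, Atf7, Creb1, Crem and Creb3, and every gene probe on the array whose accession maps to one of these 10 mouse genes was taken, each on its own. The rule found 23 probes of 41174, for 9 of the 10 genes (of 17305 genes with a symbol on the array), and no probe matched Atf7. Of the 23, 22 were well above background on all 8 arrays and entered the test with 27165 probes in all, while 1 of the 6 Crem probes did not. The samples labelled KO came from C57BL/6 mice with an ATF3 knockout and those labelled WT from wild-type C57BL/6 mice, 4 samples each, numbered 1 to 4. All hosts carried breast tumours grown from implanted PyMT cells, mouse breast cancer cells that carry polyoma middle T as their oncogene, and the cells were sorted from dissociated tumours as positive for both the macrophage protein encoded by Adgre1 and the leukocyte protein CD45. The labels give the genotype of the host only, and neither the age of the mice, the cells in which the deletion acts, nor whether each sample is a mouse of its own. The p-values therefore measure only the spread between these samples, which may be technical. Each sample was read on its own 1-colour Agilent array, and values are given as log2 of the background-corrected signal minus the array's 75th percentile, here called the scaled level.

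ATF/CREB proteins share a basic leucine zipper, a basic stretch that touches DNA followed by a zipper through which the proteins pair, and they bind cAMP response elements (CRE) and related sites as homodimers or heterodimers. CREB1, ATF1 and CREM respond to cAMP and other kinase signals, ATF2 to stress-activated kinases, ATF4 and ATF5 are made when the initiation factor eIF2 is phosphorylated, and ATF6 and CREB3 sit in the endoplasmic reticulum membrane until they are cut free. ATF3 is induced by many stresses, and in mouse macrophages it is known as a feedback repressor of inflammatory genes.

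The promoter of Atf3 is shown because Atf3 is the targeted gene, and human ATF3 is known to repress its own promoter. Whether the transcript that the Atf3 probe reads starts at this promoter was not tested. The sequence is the 250 bases before the annotated start in RefSeq, at chr1:191183334-191183583 of GRCm38.p6 on the minus strand, written 5′ to 3′ along the gene. Capitals mark the motifs that were found on either strand.
Atf3: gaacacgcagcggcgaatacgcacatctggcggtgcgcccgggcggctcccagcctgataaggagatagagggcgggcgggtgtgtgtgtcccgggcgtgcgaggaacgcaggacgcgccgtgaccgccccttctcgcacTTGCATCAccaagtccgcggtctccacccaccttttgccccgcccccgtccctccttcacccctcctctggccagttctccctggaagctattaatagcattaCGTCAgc
The window holds 1 CRE core, searched as TGACG on both strands, whose match starts 7 bases before the gene. It also holds 1 C/EBP-ATF composite element, searched as TGATGNAA on both strands and starting 110 bases before the gene. Of 32851 promoter windows of the same length, 17.8% held the core and 3.45% the composite. The full palindrome TGACGTCA, which contains the core on both strands and occurs in 1.55% of windows, and the AP-1 site TGANTCA, in 6.75%, were not found here. Windows of Atf1, Atf2, Atf4, Atf5, Atf7, Creb1 and Creb3 were searched as well, and the core was found once each in those of Atf1 and Atf4. A match describes letters only.

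Atf3, the targeted gene, gave a strong signal in every sample. Its single probe had a scaled level of 5.51, 4.86, 4.96 and 4.88 in the samples labelled KO 1 to 4, against 4.92, 4.99, 4.79 and 4.51 in the samples labelled WT 1 to 4. KO sample 1 was the highest and WT sample 4 the lowest, and the groups overlapped. The means were 5.05 ± 0.31 in the samples labelled KO and 4.80 ± 0.21 in those labelled WT (SD, n = 4 each). Their difference was 0.25 on the log2 scale, with a 95% interval from -0.24 to 0.74 (limma adjusted p = 0.9999, two-sided exact permutation p = 0.314). The signal lay 515 to 941 times above the local background over the 8 arrays, and a fall of 2-fold in the samples labelled KO lies outside the interval. Which stretch of Atf3 the knockout removes, and whether the probe lies in it, is not stated in the labels. Whether the signal comes from host macrophages or from other cells, such as the implanted tumour cells, was not tested either. The signal therefore cannot check the labels. Every direction below is therefore one between sample labels.

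The comparison of same-numbered samples gave Atf3 differences of 0.59, -0.13, 0.17 and 0.37 for the pairs numbered 1 to 4, so the sample labelled KO was the higher in 3 of 4 pairs (exact sign-flip p = 0.25, where 0.125 is the smallest that 4 pairs allow). Arrays 1 and 2 of each genotype shared a slide, and so did arrays 3 and 4. The difference was 0.23 within slide 1 and 0.27 within slide 2, and it was 0.0965 without KO sample 1, 0.15 without WT sample 4 and 0.42 without scaling. Without scaling the groups did not overlap for Atf3, with signals of 23140 to 29165 in the samples labelled KO and 17982 to 20961 in those labelled WT. Non-overlap in that direction was found for 2.01% of all probes tested on the same unscaled signals, whose median difference was 0.17 against -0.005 after scaling, and Atf3 was the only member probe of 22 to show it. In the other direction, 0 of 22 member probes and 0.56% of all probes did not overlap.

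No member was called between the genotypes. In the limma fit, the adjusted p was under 0.05 for 0 of 22 member probes, as for all probes (0%). The unadjusted p was under 0.05 for 0 of 22, against 3.36% of all probes tested (912 of 27165). After scaling, the groups overlapped for all 22, against non-overlap in 2.13% of all probes. There were 13 probes with a positive and 9 with a negative difference, and the median was 0.06, beside 49.3% positive and a median of -0.005 over all probes. Of the 13, 5 read Crem. This fit left out the pairing by number. Its 95% interval reached a median of 0.59 to either side of the difference on the log2 scale. Moderate differences in most members were thus not detectable in it with this number of arrays.

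**Figure D1:**
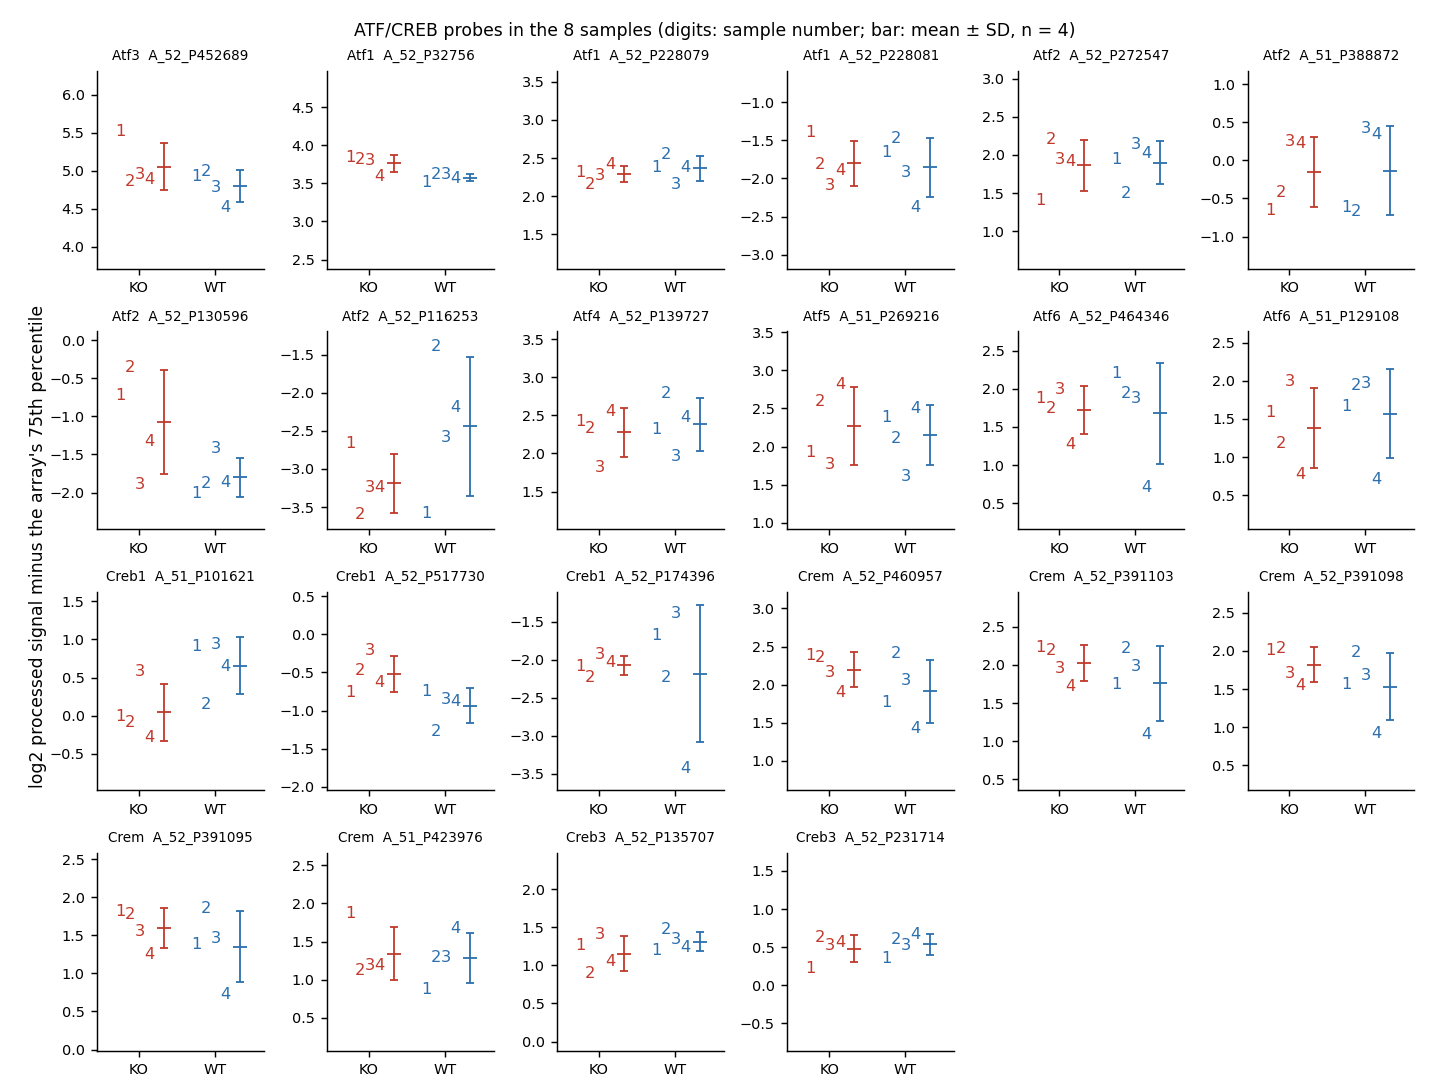
Scaled level of each of the 22 ATF/CREB probes tested (vertical axes, log2, all spanning the same range) in the samples labelled KO, left and red, and WT, right and blue. Each digit is 1 sample and carries its number, and the bars give the mean ± SD of 4. The 2 groups overlap in every panel, and the probes of Atf2 and of Creb1 differ among themselves.

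**Figure D2:**
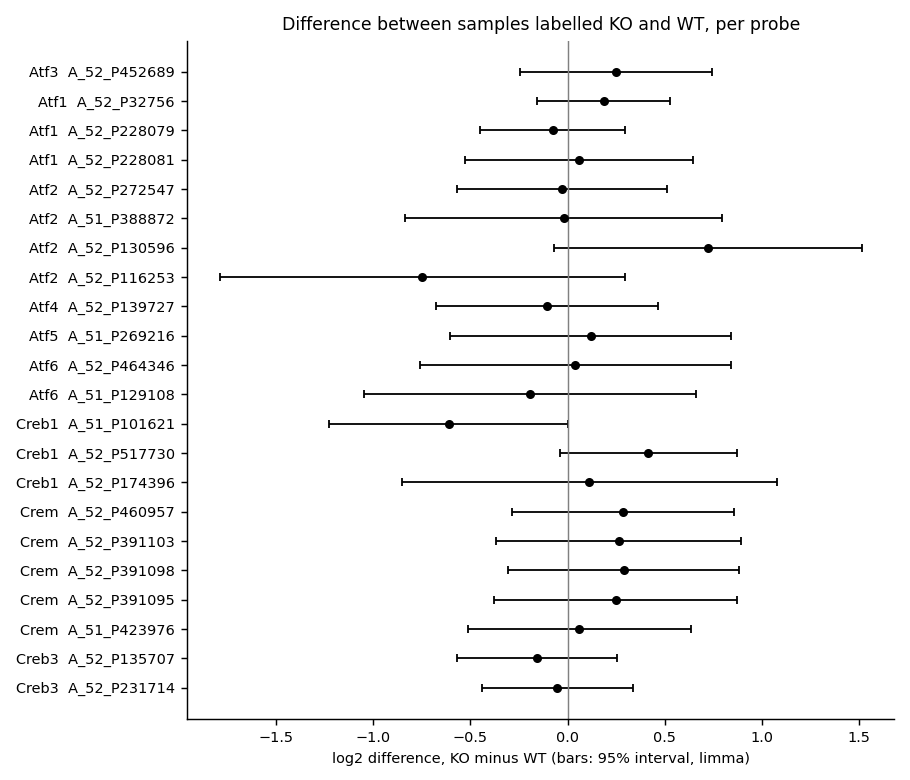
Log2 difference between samples labelled KO and WT for each of the 22 probes (points) with its 95% interval from limma (bars). The interval of every probe includes 0, and the probe that comes nearest to leaving it out is A_51_P101621 of Creb1, from -1.23 to 0.00.

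Creb1, the founding member of the cAMP-responsive group, was read by 3 probes whose differences did not share a sign. Probe A_51_P101621 had a scaled level of -0.01, -0.09, 0.58 and -0.29 in the samples labelled KO, against 0.91, 0.14, 0.93 and 0.65 in those labelled WT. All samples labelled KO but sample 3 lay below every sample labelled WT. The difference was -0.61 with a standard error of 0.27 (limma adjusted p = 0.9999, exact permutation p = 0.0571), and it was negative in 4 of 4 pairs (exact sign-flip p = 0.125), as for 9.36% of all probes. With the sample number as a replicate block it was the only member probe of 22 with an unadjusted p under 0.05, against 7.32% of all probes, and it was not called there either (limma adjusted p = 0.653). It was -0.58 within slide 1 and -0.64 within slide 2. This probe was printed as 10 spots on each array, whose signals varied by 3.04% to 5.16% (coefficient of variation), so the spread between samples was larger than that between spots of one array.

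The second Creb1 probe, A_52_P517730, differed the other way. It had -0.76, -0.48, -0.22 and -0.63 in the samples labelled KO, against -0.75, -1.27, -0.85 and -0.89 in those labelled WT. KO sample 1 lay just below WT sample 1, and the other samples labelled KO lay above all samples labelled WT. The difference was 0.42 with a standard error of 0.20 (limma adjusted p = 0.9999, exact permutation p = 0.0571), positive in 3 of 4 pairs. The third probe, A_52_P174396, differed by 0.11, or by -0.30 without WT sample 4, in which it measured -3.43 against -2.23 to -1.40 in the other samples labelled WT. Neither sign therefore stands for the gene, and the labels do not say which transcripts each probe reads.

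Atf1, a close relative of Creb1 in sequence and in its response to cAMP, was read by 3 probes. The brightest, A_52_P32756, had 3.84, 3.81, 3.80 and 3.59 in the samples labelled KO, against 3.51, 3.61, 3.62 and 3.56 in those labelled WT. KO samples 1 to 3 lay above all samples labelled WT, while KO sample 4 lay among them. The difference was 0.19 with a standard error of 0.15 (limma adjusted p = 0.9999, exact permutation p = 0.0857), and the sample labelled KO was higher in 4 of 4 pairs, as for 7.62% of all probes. It was 0.43 with normexp and 0.36 without scaling. The other Atf1 probes gave -0.08 (0.07 with normexp background correction and 0.10 without scaling) and 0.06 (-0.19 with normexp).

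Crem, which encodes both activators and the inducible repressor ICER that feeds back on CREB signalling, had positive differences for all 5 tested probes. A_52_P460957 had 2.39, 2.36, 2.16 and 1.89 in the samples labelled KO, against 1.77, 2.40, 2.05 and 1.43 in those labelled WT. The lowest 2 values were those of WT samples 4 and 1, and the groups overlapped. Its difference was 0.28 with a standard error of 0.25 (limma adjusted p = 0.9999, exact permutation p = 0.286). Probes A_52_P391103, A_52_P391098 and A_52_P391095 differed by 0.26, 0.29 and 0.25. For A_52_P391098 all 4 pairs had the higher level in KO, as for 7.62% of all probes. These 4 probes read nearly the same profile: after centring each on its own mean, any pair of them had a root mean square difference of 0.05 to 0.09 over the 8 arrays, so they count as one measurement and not as 4. Their differences were between 0.04 and 0.12 without WT sample 4, between 0.41 and 0.45 without WT sample 2, and between 0.42 and 0.46 without scaling.

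The remaining tested Crem probe, A_51_P423976, had a different profile, 0.43 to 0.49 away from the other 4 by the same measure. It had 1.86, 1.13, 1.19 and 1.19 in the samples labelled KO, against 0.87, 1.29, 1.29 and 1.67 in those labelled WT, a difference of 0.06. KO sample 1 was the highest of all, WT sample 4 came next and WT sample 1 was the lowest. The difference was 0.41 within slide 1 and -0.29 within slide 2. The sixth probe, assigned to another Crem transcript, was well above background on 0 of 4 arrays labelled KO and 1 of 4 labelled WT and was not tested.

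Atf2, a partner of JUN that stress-activated kinases switch on, was read by 4 probes, which varied in different ways. The brightest, A_52_P272547, had 1.41, 2.21, 1.94 and 1.91 in the samples labelled KO and 1.94, 1.49, 2.14 and 2.02 in those labelled WT, a difference of -0.03 (0.16 with normexp, 0.14 without scaling and 0.03 in the authors' deposited table). A_51_P388872 differed by -0.02 (0.15 without scaling) and followed the sample numbers, with -0.66 and -0.42 in KO samples 1 and 2 and -0.62 and -0.67 in WT samples 1 and 2, whereas samples 3 and 4 had 0.25 and 0.22 in KO and 0.42 and 0.33 in WT. Numbers 3 and 4 are also those of slide 2.

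The dimmer Atf2 probes differed in opposite directions, by more than the other members on the scaled levels. A_52_P130596 had -0.72, -0.35, -1.89 and -1.33 in the samples labelled KO, against -2.01, -1.89, -1.42 and -1.87 in those labelled WT, a difference of 0.72 with a standard error of 0.34 (limma adjusted p = 0.9999, exact permutation p = 0.114). That difference was 1.41 within slide 1, 0.04 within slide 2 and 0.20 with normexp, where it was smaller than that of Atf1 probe A_52_P32756 at 0.43. A_52_P116253 had -2.66, -3.60, -3.24 and -3.24 in the samples labelled KO, against -3.59, -1.39, -2.58 and -2.20 in those labelled WT, a difference of -0.75 with a standard error of 0.45 (limma adjusted p = 0.9999, exact permutation p = 0.171), or -0.40 without WT sample 2 and -1.13 without WT sample 1. With normexp the difference of A_52_P116253 was -0.99 with a standard error of 0.33. The spread among the samples labelled WT was wide for this probe, whose signal was as low as 1.87 times the local background. Probes of one gene that differed in sign were found for 4 of the 6 members with several tested probes (66.7%) and for 45.3% of the 4633 such genes on the array.

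Atf4, the main effector of the integrated stress response, varied more by sample number than by genotype. It had 2.41, 2.33, 1.82 and 2.55 in the samples labelled KO, against 2.32, 2.79, 1.96 and 2.47 in those labelled WT. Number 3 was the lowest in both genotypes. The difference was -0.10 with a 95% interval of -0.68 to 0.47 (limma adjusted p = 0.9999), or 0.07 without scaling. Since ATF4 is controlled largely at translation, its transcript level says little about the protein.

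Atf5, which is regulated in the same way, had 1.92, 2.59, 1.76 and 2.82 in the samples labelled KO, against 2.39, 2.11, 1.61 and 2.51 in those labelled WT. Number 4 was the highest and number 3 the lowest in both genotypes. The difference was 0.12 with a 95% interval of -0.60 to 0.84 (limma adjusted p = 0.9999), and -0.06 without WT sample 3 or without KO sample 4, against 0.24 with normexp and 0.29 without scaling.

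Atf6, a sensor of misfolded protein in the endoplasmic reticulum, was lowest in number 4 of both genotypes by both probes. A_52_P464346 had 1.88, 1.74, 2.00 and 1.27 in the samples labelled KO, against 2.20, 1.94, 1.87 and 0.71 in those labelled WT. A_51_P129108 had 1.59, 1.18, 1.99 and 0.77 in the samples labelled KO, against 1.67, 1.94, 1.97 and 0.71 in those labelled WT. The differences were 0.04 and -0.19 (limma adjusted p = 0.9999 for each), and the first was -0.26 within slide 1 and 0.34 within slide 2.

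Creb3, cut from the membrane like ATF6, was read by 2 probes with small differences. A_52_P135707 had 1.26, 0.89, 1.41 and 1.04 in the samples labelled KO, against 1.20, 1.47, 1.34 and 1.23 in those labelled WT, a difference of -0.16 with a 95% interval of -0.57 to 0.25 (0.01 without scaling). A_52_P231714 differed by -0.05 with an interval of -0.44 to 0.34 (0.12 without scaling and 0.02 with normexp). Both intervals leave out a 2-fold change either way.

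Part of the spread within a genotype went with the sample number. For the 22 member probes, the part of the spread within genotypes that same-numbered samples had in common had a median of 72.4%, beside 74.9% over all probes tested. Samples with nothing in common would share 50% on average by this measure, as the degrees of freedom give it. It was 97.0% for Atf2 probe A_51_P388872, but 14.8% to 27.0% for the other Atf2 probes. Creb3 probe A_52_P231714 had 94.6% and the other Creb3 probe 31.4%. The part was 84.9% for Atf4 and 79.4% for Atf5. For Crem probe A_51_P423976 it was 9.71%, and for Atf3 it was 66.9%.

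Markers of the sorted and of other cells moved with the number too. Summed as multiples of each array's 75th percentile, 11 macrophage markers gave 446, 362, 499 and 262 in KO samples 1 to 4 and 439, 397, 499 and 255 in WT samples 1 to 4. For 7 tumour epithelial markers the sums were 35.1, 74.6, 12.9 and 104 in the samples labelled KO and 36.9, 77.0, 12.2 and 104 in those labelled WT. Number 4, in which Atf6 and the 4 alike Crem probes were lowest and Atf5 highest, thus had the lowest macrophage and the highest epithelial sum in both genotypes, and number 3, lowest for Atf4 and Atf5, had the reverse. The part of these cells in the member values was not tested, and in bulk samples fewer cells of a type and less RNA per cell cannot be told apart.

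**Figure D3:**
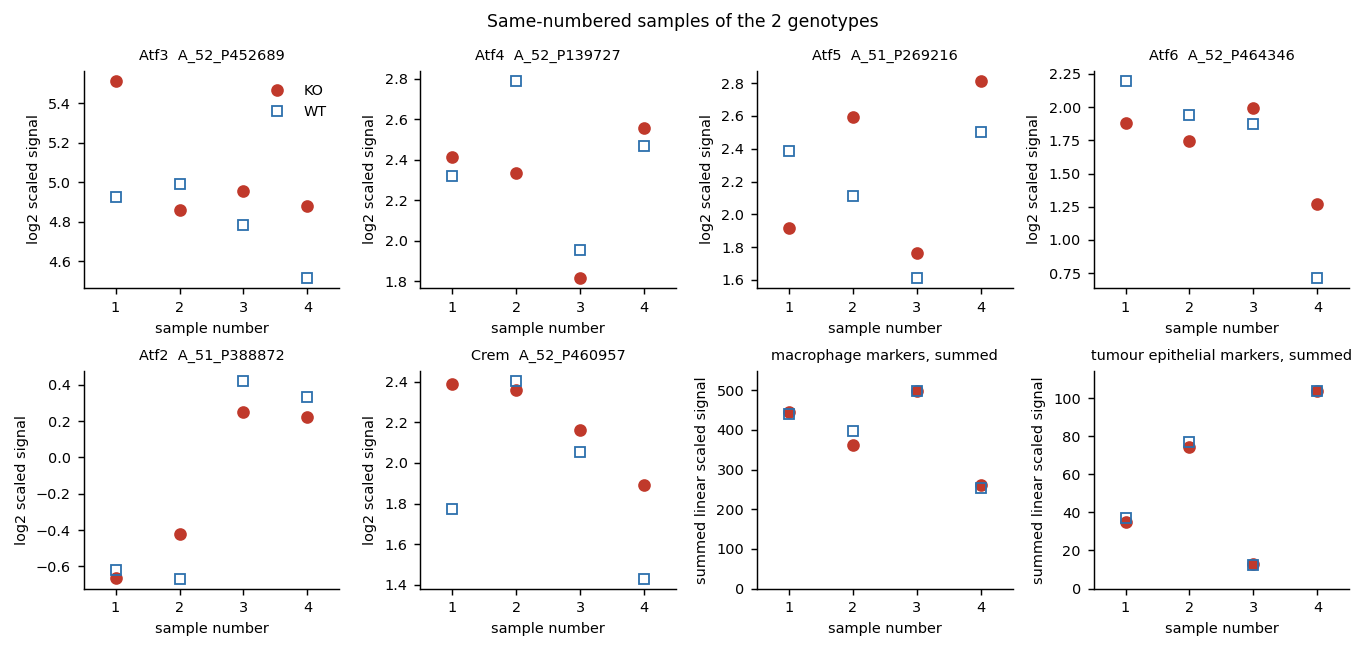
Scaled level (log2, vertical axes) of 6 member probes and summed linear scaled signal of macrophage and tumour epithelial markers by sample number, with filled red circles for samples labelled KO and open blue squares for those labelled WT. Number 4 is lowest for Atf6 and for the macrophage sum and highest for the epithelial sum (104 in both genotypes), whereas Atf2 probe A_51_P388872 separates numbers 1 and 2 from 3 and 4.

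The other marker sums overlapped between the genotypes, but several went one way in every pair. In 4 of 4 pairs the KO sum exceeded the WT sum for T cell, for NK and cytotoxic and for B cell markers, and was below it for endothelial and neutrophil markers. Of all single probes tested, 7.62% were higher and 9.36% lower in KO in every pair. Between the groups, the exact permutation p of these sums ran from 0.229 for endothelial to 0.714 for neutrophil markers. T cell markers summed to 6.80 to 18.5 in the samples labelled KO and 4.99 to 13.5 in those labelled WT (7 of 8 with a positive difference), NK and cytotoxic markers to 7.77 to 31.1 and 5.36 to 14.3 (7 of 7), and endothelial markers to 2.04 to 4.08 and 2.08 to 8.61 (0 of 8), with the samples labelled KO before those labelled WT. The median differences of these lists were 0.51, 0.66 and -0.99, none of their genes was called, and their part in the member values was not tested. Fibroblast sums were 9.0 to 54.1 in the samples labelled KO and 8.52 to 42.2 in those labelled WT (5 of 7), neutrophil sums 4.81 to 52.4 and 6.61 to 58.1 (0 of 5), B cell sums 1.38 to 3.81 and 1.02 to 2.42 (4 of 4), dendritic cell sums 14.4 to 34.4 and 17.7 to 33.5 (1 of 4), and erythroid sums 0.19 to 2.70 and 0.50 to 5.90 (0 of 2). Of the macrophage markers, 3 of 11 had a positive difference, as had 4 of 7 epithelial and 1 of 2 adipocyte markers. Adipocyte sums were 0.0709 to 0.074 in the samples labelled KO and 0.0408 to 0.0751 in those labelled WT. Adipoq, the adipocyte hormone gene, differed by 1.77 and its groups did not overlap, as for 0.825% of all probes in that direction. Its probe was well above background on 4 of 4 arrays labelled KO and 2 of 4 labelled WT. Plin1, the other adipocyte gene tested, differed by -0.30. The endothelial gene Vwf differed by -0.63, the B cell gene Ms4a1 by 1.66 and the T cell gene Lat by 0.65. The NK cell gene Klrb1c differed by 1.31 by its brightest probe and by -0.26 by the other. None of these genes was called (limma adjusted p = 0.9999 for each). The sort markers Adgre1 and Ptprc, which encodes CD45, were well above background on all arrays and differed by -0.07 and -0.10. The other Ptprc probes differed by 0.02 and 0.19. The 75th percentile of the signal lay 20.6 to 31.9 times above the local background, 63.7% to 68.0% of gene spots were well above background and 0 were saturated.

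Genes whose proteins pair with, switch on or answer to the members were taken from 8 lists, and none of their genes was called (limma adjusted p of at least 0.9999 for each list's smallest). Relatives outside the members, such as Jdp2 and the BATF genes, had 3 of 12 genes with a positive difference and a median of -0.07 (9 positive without scaling). The one with the smallest unadjusted p was Batf3, a factor of dendritic cell development, with 0.29, -0.59, -0.68 and -1.74 in the samples labelled KO against 0.88, 0.13, 0.20 and -0.58 in those labelled WT. Each sample labelled KO lay below the WT sample of its number, as for 9.36% of all probes, by a mean of 0.83. The groups overlapped, and Batf3 was again lowest in number 4. The standard error of this difference was 0.47 in the main fit, which left out the pairing. With the sample number as a replicate block it was 0.15, and Batf3 was not called there either (limma adjusted p = 0.653). In that block fit 7.32% of all probes had an unadjusted p under 0.05. Jdp2, the closest relative of ATF3, differed by -0.09, Creb3l2 by -0.67, Batf2 by 0.44 and Creb3l3 by -0.45.

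The bZIP partners of ATF3 in the AP-1 and C/EBP families had 3 of 12 positive differences with a median of -0.05, but 11 without scaling and 10 with normexp. Cebpd differed by 0.21, Junb by 0.22, Fos by -0.10, Cebpb by -0.12, Jund by -0.06 and Ddit3, which encodes the stress factor CHOP, by -0.04. Immediate early and dissociation stress genes, a class to which Atf3 belongs, had 5 of 19 positive with a median of -0.07, but 16 without scaling or with normexp. Klf4 differed by -0.22, the heat shock gene Hspa1a by -0.33, Klf2 by -0.15, Klf6 by -0.20 and Egr1 by -0.07. For Klf2 the groups did not overlap, as for 1.31% of all probes in that direction.

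Upstream of the members, the eIF2 kinases and other stress sensors had 1 of 9 positive differences with a median of -0.10, but 7 without scaling. Ppp1r15b, a subunit of the phosphatase that restores eIF2, differed by 0.46, the endoplasmic reticulum sensor gene Ern1 by -0.47 and the kinase gene Eif2ak3 by -0.20. Mbtps1, the protease that cuts ATF6, differed by -0.10 (-0.33 and 0.31 by the other probes). Downstream, ATF4 target genes were split evenly, with 12 of 24 positive and a median of 0.01 (21 positive without scaling). Sesn2 differed by -0.28, the aminoacyl-tRNA synthetase gene Nars by 0.18, the serine synthesis gene Phgdh by -0.28 (0.14 by both other probes) and the glutathione-degrading enzyme gene Chac1 by -0.54. ATF6 and XBP1 target genes had 7 of 17 positive and a median of -0.04 (15 positive without scaling). The disulphide isomerase gene Pdia6 differed by -0.19, calreticulin (Calr) by -0.12 (0.06 by the other probe) and the chaperone gene Hsp90b1 by -0.11. The co-chaperone gene Dnajb9 differed by -0.11 (-0.21 and 0.04 by the other probes). The chaperone gene Hspa5, the classical ATF6 target, differed by 0.10.

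CREB coactivators and target genes had 5 of 15 positive differences, a median of -0.07, and 3 genes with an unadjusted p under 0.05, all lower in the samples labelled KO, where 2.17% of all probes were. No gene of the other lists of partners, sensors and targets had an unadjusted p under 0.05 in either direction, where 3.36% of all probes had. With normexp only Crebbp of the 3 kept an unadjusted p under 0.05. The coactivator gene Crtc3, whose protein joins CREB in the nucleus, had a scaled level of -0.45, -0.94, -0.42 and -0.48 in the samples labelled KO, against 0.15, 0.20, -0.04 and -0.16 in those labelled WT. The groups did not overlap, as for 1.31% of all probes in that direction. The difference was -0.61 with a standard error of 0.19 (limma adjusted p = 0.9999), from -0.67 to -0.49 over the left-out samples, -0.87 within slide 1 and -0.35 within slide 2.

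Crebbp, which encodes the acetyltransferase CBP that phosphorylated CREB recruits, did not overlap either. Its probe had -3.19, -3.39, -4.20 and -4.36 in the samples labelled KO, against -0.22, -1.73, -3.02 and -2.85 in those labelled WT. WT sample 1 stood far above the rest. The difference was -1.83 with a standard error of 0.63 (limma adjusted p = 0.9999), or -1.25 without WT sample 1 and -1.19 with normexp. The paralogue Ep300 differed by -0.13, and the coactivator gene Crtc2 by -0.01. Pde4d, a cAMP phosphodiesterase, differed by -1.56, but its probe was well above background on 1 of 4 arrays labelled KO and 3 of 4 labelled WT. Its difference was -0.50 in the authors' deposited table, and its unadjusted p was above 0.05 there, with normexp, without scaling and with quantile normalization. The clock gene Per2 differed by 0.32 by its brightest probe and by -0.59 by the other.

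**Figure D4:**
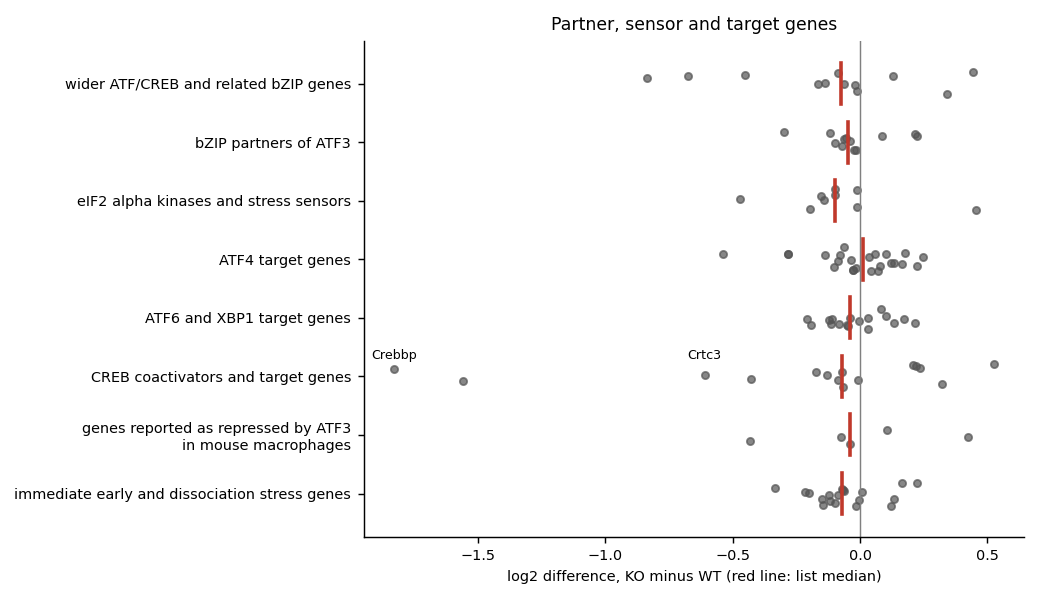
Log2 difference between samples labelled KO and WT (horizontal axis) for each tested gene of the 8 lists, with 1 point per gene, read by its brightest probe, and a red line at each list's median. The medians lie between -0.10 and 0.01. Crebbp at -1.83, Pde4d at -1.56 (not labelled) and Crtc3 at -0.61 stand at the low end of the CREB list.

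Genes reported as repressed by ATF3 in mouse macrophages went both ways, with 2 of 5 positive and a median of -0.04 (4 positive without scaling and 0 in the deposited table). Il6 had 2.78, 2.09, 1.76 and 1.61 in the samples labelled KO, against 1.91, 1.57, 1.80 and 1.27 in those labelled WT, a difference of 0.42 with a standard error of 0.29. KO sample 1, the highest for Atf3, was the highest for Il6 as well, but also for Junb and Hspa1a. Among the samples labelled KO it was the highest for Tnf and Nos2 too, though not for Ch25h. Tnf differed by -0.43 with a standard error of 0.39, Nos2 by 0.11 and Ch25h by -0.08 (limma adjusted p = 0.9999 for each).

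The profiles most like that of Atf3 over the 8 arrays were found by the root mean square difference between levels centred on their own mean, among 19324 probes with a symbol. They were those of Med25, a Mediator subunit, at 0.09, Tmem120a, a membrane protein gene, at 0.09, Hexim1, an inhibitor of the elongation factor P-TEFb, at 0.10, the zinc finger gene Zfp710 at 0.10 and Iba57, which takes part in iron-sulphur cluster assembly, at 0.10. The median over all these probes was 0.46, and a flat profile would lie 0.26 from that of Atf3.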

How the data were processed

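Per the labels' protocols, total RNA was amplified and labelled with Cy3. Per the file headers, the authors extracted the arrays with Agilent Feature Extraction 10.7.1.1 on an mm9 design, and the submitters' processing notes give 10.5 as the version. The signal used here was the background-corrected processed signal that the extraction gave for each spot. After removal of control and outlier spots, replicate spots were averaged as log2 and each array's 75th percentile subtracted. The 27165 probes called well above background on 4 or more of the 8 arrays were fitted in limma 3.58.1 under R 4.3.3 (lmFit, then eBayes). Tests were two-sided and adjusted over all probes by Benjamini-Hochberg. Through a RefSeq table of GRCm38.p6, 25097 probes had 1 symbol, 0 had several and 16077 had none. For lists, the brightest tested probe stood for its gene. Normexp (offset 50) used the median signal.

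Members and lists were chosen with earlier results of these data known. The text names all member probes, up to 4 genes per list by smallest p, the 5 profiles nearest to Atf3 and, of 5 marker lists, the gene of smallest p (Adipoq, Vwf, Ms4a1, Lat and Klrb1c). Named beyond that rule, after their values were seen, were Jdp2, Jund, Ddit3, Egr1, Hspa5, Ep300, Crtc2, Plin1, Adgre1 and Ptprc, as were the 5 marker lists. Lists follow general knowledge.

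What samples of one number share is not in the labels. After subtracting each group's mean, same-numbered samples 1 to 4 correlated across probes at 0.30, 0.13, 0.70 and 0.51. Each value exceeds the limit of 0.1, and on this basis the sign flips, pair counts and replicate block took the samples as paired. The main limma fit had genotype alone. Its standard errors, intervals and adjusted p-values, given wherever no other setting is named, are therefore unpaired. For Atf3 the standard error was 0.21 in that fit and 0.16 with the replicate block. KO sample 4 with WT sample 2 also reached 0.15, and KO sample 2 with WT sample 4 reached 0.14.

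The authors' deposited table of processed intensity, of unstated scale and centring, had column medians of 92 to 94 and looks, from a correlation of 0.9986 between differences of arrays over 26984 probes, like quantile-normalized median signal. It served as an alternative. The fit was tested on simulated data. Other alternatives were no scaling, the median of bright probes as scale, quantile normalization, other filters on dim probes, slide and replicate blocks, each slide alone, eBayes with trend and robust, the brightest probe per gene, and each sample left out.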

Additional observations from a re-analysis of the deposited data

Results flagged for a closer look

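In 2 of 44 groups of 4 samples (22 probes in each genotype), 1 sample stood apart by Dixon's criterion, which chance meets in about 1 of 20 groups. Both were KO sample 1. The Atf3 level was 5.51 there, against 4.86 to 4.96 in the other samples labelled KO. The level of Crem probe A_51_P423976 was 1.86, against 1.13 to 1.19 in the others. No spot of KO sample 1 was saturated, and its 75th percentile of 638 was the lowest among the samples labelled KO.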

How the results depend on the processing

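The count of calls stayed at 0, over all probes and over the members, under the 13 other settings and the 8 left-out samples. Atf3 stayed positive in all of them, from 0.0965 without KO sample 1 to 0.42 without scaling. With the replicate block, made because the numbers pair the samples, no call changed: Atf3 kept a difference of 0.25 (limma adjusted p = 0.776), and the smallest unadjusted member p was 0.0229, for Creb1 probe A_51_P101621 (adjusted p = 0.653). Some member differences were larger against their standard error (SE) elsewhere than in the main fit. Without scaling Atf3 had 0.42 (SE 0.18), and in the deposited table Creb1 A_52_P517730 had 0.45 (SE 0.18). Atf2 A_52_P116253 had -0.99 (SE 0.33) with normexp. Atf2 A_52_P130596 had 1.41 (SE 0.30) within slide 1, but 0.20 (SE 0.37) with normexp. Of the 22 member probes, 10 kept their sign under every alternative in which they were tested, and no probe that changed sign was called in either direction. Normexp gave 0.0663 for Atf1 A_52_P228079, -0.19 for Atf1 A_52_P228081, 0.16 for Atf2 A_52_P272547, -0.19 for Creb1 A_52_P174396 and 0.0176 for Creb3 A_52_P231714. It moved the median of all probes to -0.16. Leaving out the scaling, which moved that median to 0.17, gave 0.10 for Atf1 A_52_P228079, 0.14 for Atf2 A_52_P272547, 0.15 for Atf2 A_51_P388872, 0.0691 for Atf4, 0.0146 for Creb3 A_52_P135707 and 0.12 for Creb3 A_52_P231714. The deposited table gave 0.0286 for Atf2 A_52_P272547 and -0.0043 for Crem A_51_P423976. It gave no value for Creb1 A_51_P101621. Slide 1 alone gave -0.0412 for Atf1 A_52_P228081, 0.092 and 0.10 for Atf2 A_52_P272547 and A_51_P388872, -0.26 for Atf6 A_52_P464346 and -0.20 for Creb1 A_52_P174396. Slide 2 alone gave 0.0788 for Atf1 A_52_P228079, 0.0381 for Atf6 A_51_P129108 and -0.29 for Crem A_51_P423976. Over the left-out samples the differences ranged from -0.12 to 0.19 for Atf1 A_52_P228081, -0.16 to 0.12 for Atf2 A_52_P272547, -0.20 to 0.17 for Atf2 A_51_P388872, -0.25 to 0.0503 for Atf4, -0.0622 to 0.29 for Atf5, -0.28 to 0.21 for Atf6 A_52_P464346, -0.48 to 0.0119 for Atf6 A_51_P129108, -0.30 to 0.38 for Creb1 A_52_P174396, -0.11 to 0.19 for Crem A_51_P423976 and -0.11 to 0.0338 for Creb3 A_52_P231714. The cause of these changes was not tested, beyond fewer samples in the slide and left-out settings.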
